A study of Mus musculus with 12 samples.

Results

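Frame-preserving skipped exons are exons whose length is a multiple of 3 and which the splicing event catalogue of a library gives in a kept and a skipped form. The exons described here were all those over 50 nt that the event catalogues of 12 mouse BV-2 libraries list as exactly skipped and whose length can be divided by 3, counted once per gene, chromosome, start and end. There were 6259 of them in 4055 genes, among 16599 distinct exactly skipped exons in all (37.7%). Another 8963 skipped exons over 50 nt had a length that is not a multiple of 3 and are called frame-shifting below, and 1377 were 50 nt or shorter.

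BV-2 is an immortalised mouse microglial line, given as macroglia in the cell type label. RNA sequencing was done on 3 libraries each of cells that received LPS (lipopolysaccharide from the bacterial outer membrane, which microglia sense through a Toll-like receptor), NMN (nicotinamide mononucleotide, from which cells make NAD), LPS and NMN together (LPS+NMN), or neither (control). All groups are the same line, and no source used here states the doses or times. The study asked which genes differ between LPS+NMN and LPS cells, in a setting of ferroptosis, an iron-dependent form of cell death. The labels do not say whether a group's 3 libraries are separate cultures, so each p-value covers the spread among these libraries, and that spread may be technical.

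The catalogues hold no read count, level or depth. Each names between 11911 and 12246 genes and between 5990 and 7338 distinct skipped exons. Each entry has a line for the form that keeps the exon and a line for the form that skips it, so that a listed exon was found in both forms in that library. An exon that is not listed can have been always included, always left out or not covered, and these cannot be told apart. Of the 43966 cases in which a library did not list one of the 6259 exons, 43862 (99.8%) were in a gene that the library did list. Of 20 microglia and macrophage markers, 15 were listed in all 12 libraries, among them Csf1r, Aif1, Itgam, Tyrobp and Tmem119, and each library listed between 15 and 17. Of the other 5, P2ry13 was listed in 6 libraries of all groups, Cx3cr1 in 4 treated and no control library, P2ry12 and Gpr34 in 2 control libraries each, and Siglech in none. Of the 8 astrocyte markers, each library listed between 1 and 3, and Aqp4, Aldh1l1, Slc1a3, Gja1 and Sox9 were listed in none. Rbfox3, Snap25, Syt1 and Nefl of the 8 neuron markers and Mog of the 8 oligodendrocyte markers were likewise in none, while Mbp, Cnp, Syn1, Tubb3 and Slc1a2 were in all 12.

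Splicing joins exons while introns are removed, and a cassette exon is one that some transcripts of a gene keep and others skip. If the whole exon is coding and its length is a multiple of the codon length, the reading frame downstream is the same with and without it, and both proteins differ only by an internal segment. If it is not a multiple, the frame shifts and a premature stop codon commonly follows, which can send the transcript to nonsense-mediated decay. In macrophages and microglia, cassette exons are known to set forms of cell surface receptors and of adaptors in innate immune signalling.

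The exons below show what a skipped frame-preserving exon takes out: first wholly coding exons whose listing differed between groups, then known cassette exons listed in every library. Sequences are the sense strand of GENCODE M21 transcripts on GRCm38. Capitals mark the bases of codons that the exon shares with its neighbours, so that an exon without capitals begins and ends between codons. The first pair are versions of 1 exon of Morf4l1, a chromatin-binding chromodomain protein, that differ at 1 end: the 114 nt form was listed in all 9 treated libraries and in no control library, the 117 nt form in all 12.
Morf4l1 114 nt, chr9:90103655-90103768, minus strand: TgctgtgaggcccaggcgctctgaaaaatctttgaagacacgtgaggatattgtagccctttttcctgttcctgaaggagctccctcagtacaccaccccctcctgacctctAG
Morf4l1 117 nt, chr9:90103655-90103771, minus strand: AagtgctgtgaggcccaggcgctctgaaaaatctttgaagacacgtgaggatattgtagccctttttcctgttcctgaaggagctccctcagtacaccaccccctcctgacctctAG
The 117 nt form begins 3 nt further upstream and has the same end. The next exon is exon 2 of Hfe, an MHC class I-like regulator of iron uptake, listed in every library except the 3 given LPS alone.
Hfe 264 nt, chr13:23708028-23708291, minus strand: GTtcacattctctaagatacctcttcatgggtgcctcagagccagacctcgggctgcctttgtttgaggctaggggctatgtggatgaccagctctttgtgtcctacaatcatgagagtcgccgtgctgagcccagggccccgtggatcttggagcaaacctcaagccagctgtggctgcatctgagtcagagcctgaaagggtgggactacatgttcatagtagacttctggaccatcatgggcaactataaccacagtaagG
Exon 2 of Myd88, the adaptor of most Toll-like receptors, is shown because the protein without it is a known short form that inhibits signalling. It was listed in 5 treated libraries and no control library, and each treatment also had a library that did not list it. GENCODE M21 does not hold the junction that skips it.
Myd88 135 nt, chr9:119338576-119338710, minus strand: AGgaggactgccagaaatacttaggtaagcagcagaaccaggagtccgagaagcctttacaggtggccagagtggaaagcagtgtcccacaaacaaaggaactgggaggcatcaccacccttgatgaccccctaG
The following 3 coding exons were listed in the 3 control libraries and in no other. They belong to Tubg1 (gamma-tubulin), Sgk3 (a serine/threonine kinase) and Madd (a Rab guanine nucleotide exchange factor with a death domain).
Tubg1 168 nt, chr11:101120831-101120998, plus strand: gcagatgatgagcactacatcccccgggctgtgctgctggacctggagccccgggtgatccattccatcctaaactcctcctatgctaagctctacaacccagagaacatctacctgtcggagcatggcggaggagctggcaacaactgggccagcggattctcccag
Sgk3 96 nt, chr1:9886047-9886142, plus strand: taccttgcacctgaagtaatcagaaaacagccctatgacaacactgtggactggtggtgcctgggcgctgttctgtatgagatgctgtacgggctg
Madd 60 nt, chr2:91163963-91164022, minus strand: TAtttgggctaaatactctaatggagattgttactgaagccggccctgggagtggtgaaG
The last group was listed in all 12 libraries. App encodes the amyloid precursor protein, and its 168 nt exon holds the Kunitz-type protease inhibitor domain. Ptprc encodes CD45, a tyrosine phosphatase of blood cells whose extracellular exons are known cassette exons.
App 168 nt, chr16:85043576-85043743, minus strand: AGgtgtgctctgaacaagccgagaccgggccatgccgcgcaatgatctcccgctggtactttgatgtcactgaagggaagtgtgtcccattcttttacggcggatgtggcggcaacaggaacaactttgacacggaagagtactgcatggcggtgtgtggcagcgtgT
App 57 nt, chr16:85040251-85040307, minus strand: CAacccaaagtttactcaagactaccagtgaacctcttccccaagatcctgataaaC
App 54 nt, chr16:84971408-84971461, minus strand: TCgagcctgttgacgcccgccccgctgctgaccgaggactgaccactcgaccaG
Ptprc 147 nt, chr1:138120020-138120166, minus strand: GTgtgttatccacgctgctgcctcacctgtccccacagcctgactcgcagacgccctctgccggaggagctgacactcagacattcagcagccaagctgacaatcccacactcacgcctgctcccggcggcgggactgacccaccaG
Ptprc 72 nt, chr1:138116954-138117025, minus strand: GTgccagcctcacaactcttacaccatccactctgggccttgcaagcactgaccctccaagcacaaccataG

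The frame-preserving exons had a median length of 117 nt, or 39 codons. Their quartiles were 84 and 165 nt and their range was 51 to 7689 nt. The frame-shifting exons had a median of 122 nt. Just inside the length limit, 108 exons had 51 nt and 105 had 54 nt. Just outside it, 74 exons had 48 nt, and 65 exons of 50 nt fell on the limit. Of the 15222 skipped exons over 50 nt, 6259 (41.1%) were frame-preserving, 4499 (29.6%) left a remainder of 1 nt and 4464 (29.3%) a remainder of 2 nt.

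Long exons were few and recurred little. The 5 longest lay in Slc38a6 (7689 nt), a member of the amino acid transporter family, Rbpj (7431 nt), the DNA-binding partner of Notch, Ankrd11 (7410 nt), a chromatin regulator, and Ankrd10 (6492 and 6465 nt). The Slc38a6 and Ankrd11 exons were listed in LPS replicate 1, the Rbpj exon in NMN replicate 3 and the longer Ankrd10 exon in LPS+NMN replicate 1, each in that library alone. The 6465 nt exon of Ankrd10 was in NMN replicate 2 and control replicate 3. None of the 5 had an annotated counterpart. Of 197 exons over 1000 nt, 47 were matched to a GENCODE exon. Among wholly coding ones, chosen after their values were seen, a 2268 nt exon of Clip1, a microtubule plus-end protein, was listed in all 12 libraries. A 3804 nt exon of Mprip, a myosin phosphatase-interacting protein, was listed in every library but LPS replicate 3. The 2361 nt exon of Rtn4 that marks its longest form, Nogo-A, was listed in all 9 treated libraries and in control replicate 1.

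By length and flanking intron lengths, 4490 of the 6259 exons (71.7%) were matched to an exon of the same gene in GENCODE M21. Of these, 3415 (76.1%) were wholly coding, 508 were partly coding, 329 lay in a 5' UTR, 32 in a 3' UTR and 187 in a noncoding transcript. Another 19 were coding only in a transcript not classed as protein-coding, and are not counted as wholly coding. Among the 5949 matched frame-shifting exons, 62.0% were wholly coding. For 2938 of the matched frame-preserving exons (65.4%), the annotation also held the junction that leaves the exon out. Of the 3415 wholly coding exons, 1775 (52.0%) began at a codon start, 1176 (34.4%) with the last 2 bases of a codon and 464 (13.6%) with the last base. Of the 3690 wholly coding frame-shifting exons, 39.1% began at a codon start, 34.2% with the last 2 bases and 26.7% with the last base.

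Most genes held 1 such exon (2612 genes), 942 held 2 and 501 held 3 or more. These counts include overlapping versions, since 776 of the 6259 exons overlapped another such exon of the same gene. Emsy exons of 150 and 153 nt share an end, for example, as do Wnk1 exons of 132, 321 and 462 nt. The genes with the most were led by Emsy, a BRCA2-interacting chromatin protein, Odf2l, a centriolar protein, and Melk, a mitotic kinase, with 8 exons each. Wnk1 (a kinase that governs ion transport), Fam13b, Bbx (an HMG-box protein) and Kcnb2 (a potassium channel subunit) held 7 each, and Slmap (a membrane-associated protein) and Gtf2i (a transcription factor) 6 each. These genes differed in how often their exons recurred. Of the 6 Slmap exons, 5 were listed in all 12 libraries, at 51, 51, 63, 90 and 123 nt. Wnk1 had 3 in all 12 libraries, at 84, 285 and 462 nt. None of the 8 Melk exons recurred in all 12, and 5 of them were in 1 library each. None of the 7 Kcnb2 exons was in all 12 or had an annotated counterpart.

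Frame-preserving exons recurred more than frame-shifting ones. Of the 6259, 1025 (16.4%) were listed in all 12 libraries and 2156 (34.4%) in 1 library. Of the 8963 frame-shifting exons, 1025 (11.4%) were in all 12 and 3454 (38.5%) in 1. Within each library, a frame-preserving exon was listed in 0.645 ± 0.0954 more of the other 11 libraries than a frame-shifting one (SD over 12 libraries, range 0.485 to 0.848). The difference had this direction in 12 of 12 libraries (exact sign-flip permutation test, two-sided, n = 12, p = 0.00048828125, the smallest that 12 libraries allow). The libraries share exons and a cell line, so that this p covers the spread between libraries only. Recurrence also went with length. The median length was 126 nt for exons in 1 library and 102 nt for those in all 12, and the share in all 12 was 24.1% at 51 to 75 nt and 3.55% over 1000 nt.

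**Figure D1:**
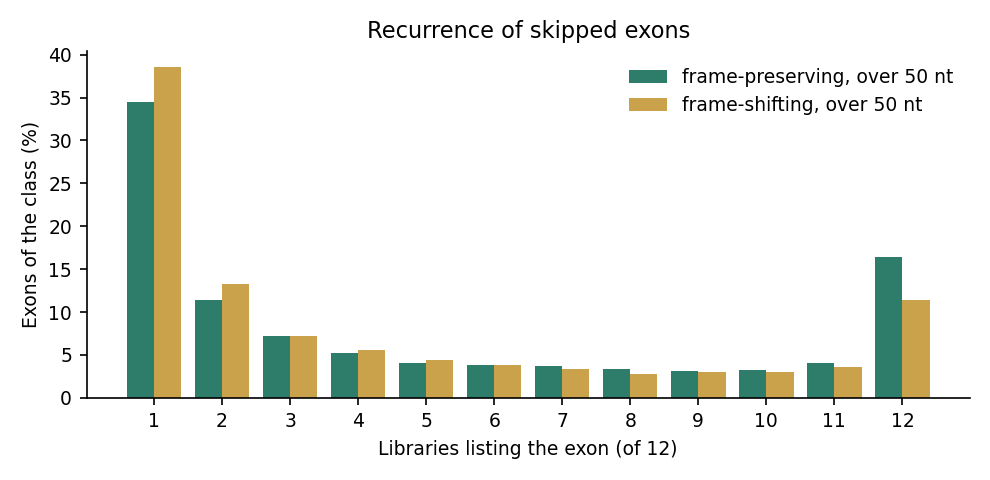
The percentage of frame-preserving (green) and frame-shifting (yellow) skipped exons over 50 nt is plotted against the number of libraries that listed the exon. Both classes are highest at 1 library, with 34.4% and 38.5%, and at all 12 the frame-preserving class has 16.4% and the frame-shifting class 11.4%.

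The excess of frame-preserving exons among recurrent ones was seen in coding sequence. Of the wholly coding skipped exons over 50 nt, 750 of 1229 listed in all 12 libraries were frame-preserving (61.0%, exact 95% binomial interval 58.2 to 63.8%), against 941 of 2204 listed in 1 library (42.7%, 40.6 to 44.8%). The share was 49.97% for coding exons in 6 to 11 libraries and 44.5% for those in 2 to 5. Of matched exons that are not wholly coding, 247 of 746 in all 12 libraries (33.1%, 29.7 to 36.6%) and 208 of 666 in 1 library (31.2%, 27.7 to 34.9%) were frame-preserving. The intervals cover counting error only, exons are not replicates, and no test was made. In each single library the share was between 52.3 and 53.7% for wholly coding exons and between 31.6 and 33.6% for other matched exons, with no overlap between the 12 values of each class. In GENCODE M21 itself, 54.0% of 7919 internal coding exons over 50 nt with an annotated skip were frame-preserving, against 40.03% of those without one.

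**Figure D2:**
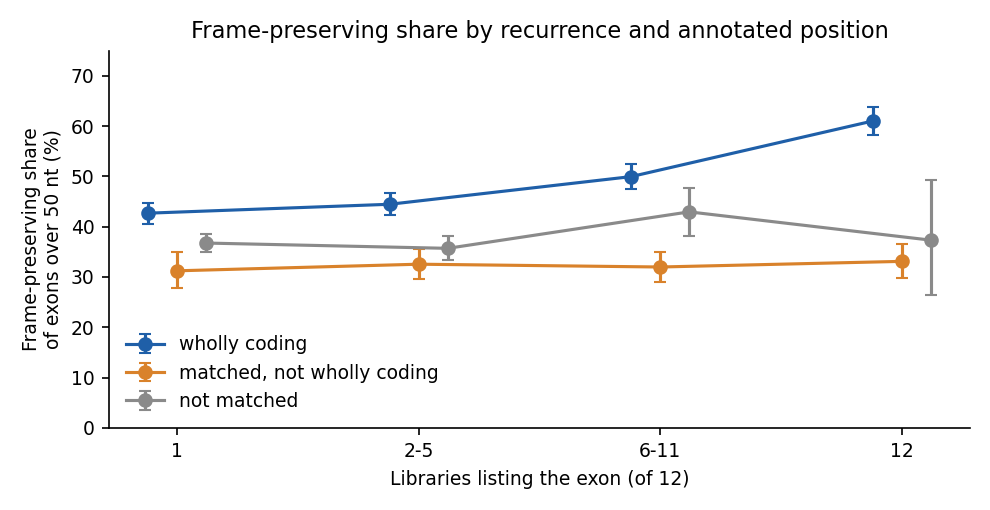
The percentage of skipped exons over 50 nt that are frame-preserving is plotted against the number of libraries listing the exon, for wholly coding exons (blue), matched exons that are not wholly coding (orange) and exons with no GENCODE counterpart (grey), with exact 95% binomial intervals. The blue points go from 42.7% at 1 library to 61.0% at 12, and the orange points lie between 31.2 and 33.1%.

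The exons in all 12 libraries were also mostly known ones. A GENCODE exon was found for 97.3% of them, and 96.1% of those matched had an annotated skipping junction. For exons in 1 library the same values were 53.3% and 30.3%. Restricted to exons over 100 nt, a choice made after the data were seen, 56.5% of coding exons in all 12 libraries and 42.7% of those in 1 were frame-preserving.

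The 10 genes followed by name held 19 of the exons, and 11 of these were listed in all 12 libraries. All 3 App exons, the Ptprc exons of 147 and 72 nt, and the Picalm exons of 150, 129 and 102 nt were listed in all 12 libraries. Picalm is a clathrin assembly protein. Its exons of 150 and 129 nt share an end and are counted separately here, and the 129 nt one had no annotated counterpart. Cd44, the hyaluronan receptor, had a 207 nt exon in all 12, a 90 nt exon in 7 and a 102 nt exon in 4 libraries (LPS replicates 2 and 3, NMN replicate 3 and control replicate 1). Bin1, a membrane-bending adaptor, had exons of 72, 129, 93 and 111 nt in 12, 10, 7 and 3 libraries. Numb, an inhibitor of Notch, had a 147 nt exon in all 12 and a 75 nt exon in control replicate 2. The 54 nt exon 6 of the death receptor Fas was in LPS replicate 3 alone. The 135 nt exon of Myd88 was in LPS replicates 1 and 3, NMN replicate 3 and LPS+NMN replicates 1 and 3. Each of the 3 treatments thus had at least 1 library that listed it and 1 that did not. Fn1 was in no catalogue, and Trem2 was listed in all 12 with no such exon.

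Among the gene lists, 110 genes chosen for known cassette exons held 189 of the exons in 81 genes, of which 70 (37.0%) were listed in all 12 libraries, beside 16.4% of all 6259. That list was chosen for such exons. Examples from these 70 were exons of 87, 174 and 177 nt of Abi1 and 87 nt of Abi2, both actin regulators of the WAVE complex, and of 279 and 87 nt of Add1, a membrane skeleton protein. Splicing regulators held 56 exons in 36 of 65 genes, with 20 in all 12 libraries (35.7%). These included exons of 159 and 156 nt of Hnrnpa1, 120 nt of Hnrnpa2b1, 147 and 57 nt of Hnrnpd and 105 nt of Hnrnpdl, all of which encode RNA-binding proteins.

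The 45 genes of Toll-like receptor and NF-kB signalling held 22 exons in 17 genes, 4 of them in all 12 libraries (18.2%). These were exons of Irak1 (117 nt) and Irak2 (144 nt), kinases next to Myd88, Map3k7 (81 nt), the kinase TAK1, and Tlr7 (81 nt), a receptor for RNA. The 141 nt exon of Tab2, a TAK1 partner, was in 11 libraries, and the 105 nt exon of Rela, an NF-kB subunit, in 7. The 48 interferon response genes held 28 exons in 18 genes, 3 of them in all 12 libraries (10.7%): Irf7 (93 nt), the transcription factor that drives interferon genes, Oas2 (93 nt), a sensor of double-stranded RNA, and Sting1 (90 nt), the adaptor of cytosolic DNA sensing. The 132 nt exon of Usp18, which restrains interferon signalling, was missing from control replicate 3 only. A further Oas2 exon of 210 nt was in 8 libraries.

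The 44 genes of ferroptosis, iron and glutathione held 13 exons in 10 genes, and none was in all 12 libraries. Ireb2, which controls translation of iron genes, had a 219 nt exon in 11 libraries and one of 60 nt in 3. Txnrd1, thioredoxin reductase, had a 75 nt exon in 10, and Gss, glutathione synthetase, a 135 nt exon in 7. The 96 nt exons of Sqle, an enzyme of sterol synthesis, and Mboat1, a phospholipid acyltransferase, were in 7 and 6. Gpx4, Acsl4 and Tfrc held no such exon. The 40 genes of NAD metabolism held 15 exons in 11 genes, with 3 in all 12 libraries (20.0%). One was the 141 nt exon 9 of Nampt, the enzyme that makes NMN, and its skipping junction is not in the annotation. The others were a 66 nt exon of Nadk2, a mitochondrial NAD kinase, and a 189 nt exon of Tnks2, a tankyrase. Sirt3, a mitochondrial NAD-dependent deacetylase, had a 162 nt exon in every library but LPS replicate 1. Its nuclear relative Sirt1 had a 117 nt exon in 5 libraries, and Parp16 a 105 nt exon in 3.

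The number of frame-preserving exons per library did not differ between groups beyond the spread. LPS libraries listed 2539, 2477 and 2580, NMN libraries 2442, 2609 and 2709, LPS+NMN libraries 2481, 2463 and 2636, and control libraries 2959, 2688 and 2559. Control replicate 1 was the highest, and the groups overlapped. The mean was 2532 ± 51.9 in LPS, 2587 ± 135 in NMN, 2527 ± 95.1 in LPS+NMN and 2735 ± 204 in control libraries (SD, n = 3 each). Against control the differences were -203 for LPS (exact permutation test, two-sided, p = 0.2), -149 for NMN (p = 0.5) and -209 for LPS+NMN (p = 0.2). LPS+NMN differed from LPS by -5.33 (exact p = 0.9) and from NMN by -60.0 (exact p = 0.7). Adjusted over the 5 comparisons by Benjamini-Hochberg, the exact p-values were between 0.5 and 0.9, and 3 libraries against 3 allow none under 0.1. Without control replicate 1 the differences from control were -91.5, -36.8 and -96.8 for LPS, NMN and LPS+NMN.

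As a share of the skipped exons over 50 nt, which takes out the size of the catalogue, the frame-preserving exons made up 44.5 ± 0.222% in LPS, 44.8 ± 0.414% in NMN, 44.0 ± 0.596% in LPS+NMN and 44.7 ± 0.529% in control libraries (SD, n = 3 each). The largest difference was -0.748 percentage points for LPS+NMN against NMN (exact permutation p = 0.2), and the adjusted values were between 0.5 and 0.9.

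**Figure D3:**
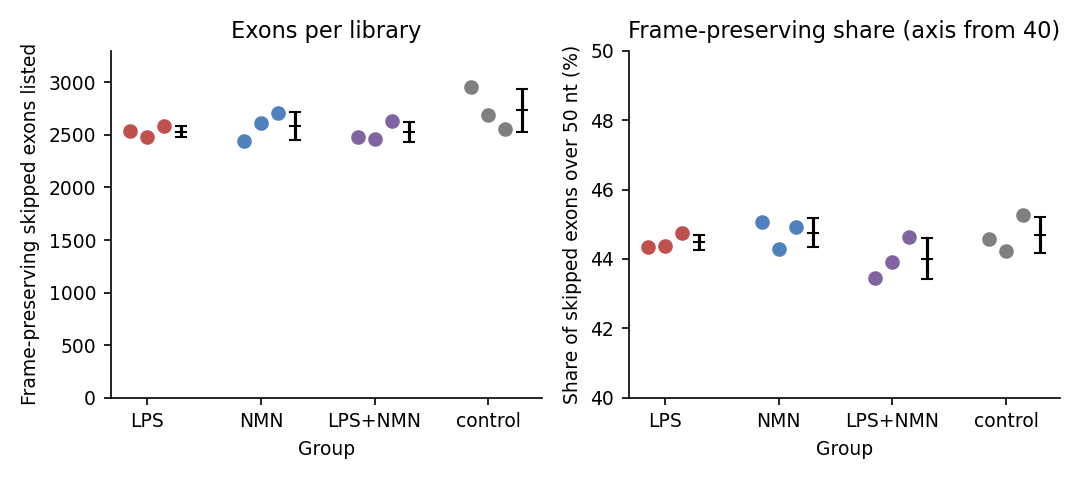
Left, the number of frame-preserving skipped exons over 50 nt in each library by group. Right, their percentage of all skipped exons over 50 nt, on an axis from 40 to 50%. Points are libraries, and the bars beside them show the mean ± SD of 3. Control replicate 1, with 2959 exons, is the highest point on the left, and the points of the 4 groups overlap in both panels.

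Presence by group was read exon by exon, as exons listed in all 3 libraries of one group and in none of the other. For LPS against control, 23 frame-preserving exons were listed by all 3 LPS and no control library (0.367%; over all 16599 skipped exons 0.458%), and 52 by all 3 control and no LPS library (0.831%; over all 0.771%). For NMN against control these were 35 with NMN only (0.559%; over all 0.512%) and 40 with control only (0.639%; over all 0.651%). For LPS+NMN against control they were 35 with LPS+NMN only (0.559%; over all 0.59%) and 61 with control only (0.975%; over all 0.819%). The shares lie near those of all skipped exons. The 3 comparisons share their control libraries, and control replicate 1 has the largest catalogue. For LPS+NMN against LPS, 17 were listed with LPS+NMN only (0.272%; over all 0.386%) and 18 with LPS only (0.288%; over all 0.458%). For LPS+NMN against NMN, 29 were listed with LPS+NMN only (0.463%; over all 0.361%) and 28 with NMN only (0.447%; over all 0.476%). For a single exon, 3 libraries against 3 allow no exact p under 0.1.

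**Figure D4:**
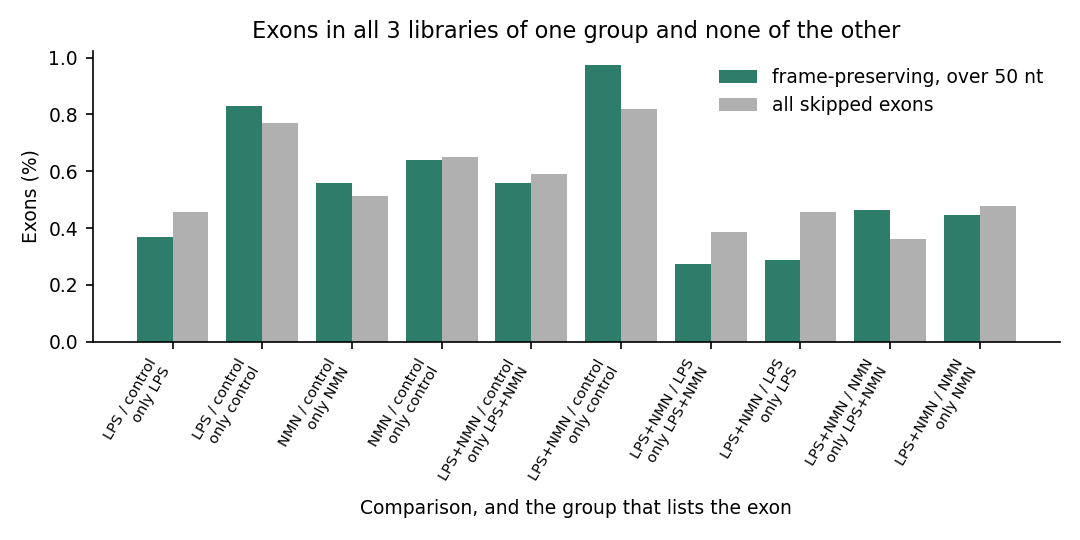
Bars give the percentage of frame-preserving exons over 50 nt (green) and of all skipped exons (grey) that were listed in all 3 libraries of one group and in none of the other, for each comparison and direction. The green bars run from 0.272% to 0.975%, with the highest for exons of control libraries that no LPS+NMN library listed.

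In all, 234 distinct frame-preserving exons met this condition in at least 1 comparison. Of these, 130 were wholly coding, beside 3415 of all 6259. In 330 of the 338 cases the group without the exon listed the gene in all 3 of its libraries. In 49 of the 338 that group listed another skipped exon overlapping the same place, as in Morf4l1. The counts of this paragraph were not made over all skipped exons, so they say nothing particular to the frame-preserving ones.

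3 exons were in all 9 treated libraries and no control library (0.0479%, beside 0.102% of all skipped exons). Beside the 114 nt Morf4l1 exon, which is the shorter form of an exon listed in all 12, they were a 195 nt exon of Gbp3, an interferon-induced GTPase, and a 138 nt exon of Ntng2, a membrane-anchored netrin relative. The Gbp3 exon lies in the 5' UTR of its annotated transcript, outside the annotated coding sequence, and an effect on the protein was not tested. The Ntng2 exon belongs to a noncoding transcript, and no control library listed Ntng2 at all, against all 9 treated ones. Ntng2 also had exons of 75, 102 and 3135 nt in 6, 5 and 1 treated libraries. Gbp3 was listed in all 12 libraries, with a second 5' UTR exon of 138 nt in LPS replicates 1 and 2 and all 3 LPS+NMN libraries.

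Others were in 7 or 8 treated libraries and no control library. Ms4a7, a macrophage membrane protein, had a 57 nt coding exon in all treated libraries but NMN replicate 1. Sfi1, a centrosomal protein, had a 96 nt coding exon in all but LPS+NMN replicate 1. Exons of Lrp8 (381 nt), an apolipoprotein E receptor, and Klra2 (99 nt), a lectin-like receptor of the Ly49 family, were in all treated libraries but LPS replicate 2. A 51 nt exon of Ralgps1, an activator of the GTPase Ral, was in all but LPS replicate 1. The 90 nt 5' UTR exon of Aim2, a cytosolic DNA sensor, was in all LPS and NMN libraries and LPS+NMN replicate 1.

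8 exons were in all 3 control libraries and no treated one (0.128%, beside 0.102% of all skipped exons). Armh3 (66 nt), Madd (60 nt), Pi16 (786 nt), Sgk3 (96 nt), Tubg1 (168 nt) and Uaca (153 nt) held coding exons among them, and Usp54 (66 nt) and Zfp524 (99 nt) exons with no annotated counterpart. Armh3 encodes an armadillo-like helical protein, Pi16 a peptidase inhibitor and Uaca an apoptosis regulator. All LPS, NMN and LPS+NMN libraries listed these 6 genes with coding exons. The skipping junction was annotated for Madd and Pi16 and not for Armh3, Sgk3, Tubg1 and Uaca.

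3 exons were missing from all libraries of 1 treatment and listed in the other 9 libraries. Each treatment had 1 such exon (0.016%), beside 0.0241% of all skipped exons for LPS, 0.012% for NMN and 0.0241% for LPS+NMN. The 264 nt coding exon 2 of Hfe was listed by the 3 NMN, 3 LPS+NMN and 3 control libraries and by no LPS library. The 96 nt exon of Parvg (gamma-parvin, an integrin-linked adaptor) was missing from the 3 NMN libraries alone, and the 189 nt exon of Rpusd1 (a pseudouridine synthase family member) from the 3 LPS+NMN libraries alone. Both are partly coding second exons. Parvg, Rpusd1 and Hfe were themselves listed in all 12 libraries. 2 genes of chromatin proteins, chosen after their values were seen, had a related pattern. An 81 nt coding exon of Ezh2, the histone methyltransferase of Polycomb, was listed in 1 LPS, 3 NMN, 0 LPS+NMN and 3 control libraries. A 105 nt coding exon of Brd1, a bromodomain protein, was in 1, 3, 0 and 2 libraries of these groups, and it shares an end with Brd1 exons of 465 and 498 nt.

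**Figure D5:**
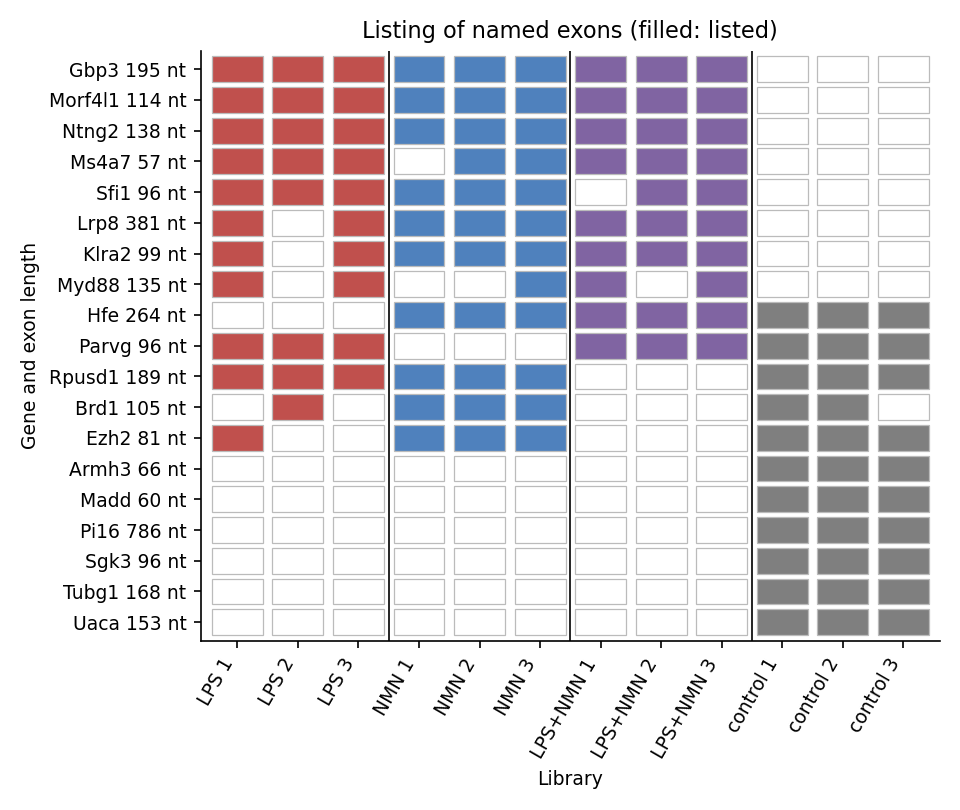
Each row is a frame-preserving exon, named by gene and length, each column a library, and a filled square means that the library listed it. The upper rows are empty in the 3 control libraries and filled in most or all treated libraries, with Myd88 filled in 5 of 9. The lowest 6 rows are filled in control libraries only. Hfe, Parvg and Rpusd1 are each empty in 1 treatment, and Brd1 and Ezh2 are empty in LPS+NMN and in 2 LPS libraries.

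With LPS+NMN against LPS, the exons listed by LPS+NMN only included, after Hfe, a 93 nt exon of Ranbp3, a nuclear export cofactor, in 8 libraries. Exons of Col7a1 (195 nt, a collagen), Mettl8 (4080 nt, an RNA methyltransferase), St7 (93 nt) and Zfp362 (126 nt, a zinc finger protein) were in 7 each. An 84 nt exon of Cemip2, a membrane hyaluronidase, was listed in the 3 LPS+NMN libraries and in no other, and was chosen after its values were seen. Those listed by LPS only included a 114 nt exon of Soat1, which esterifies cholesterol, in no other library, although Soat1 exons of 118 nt (the same start in the files, 4 nt longer) and 141 nt that overlap it were listed in all 12. Exons of Atpsckmt (51 nt) and Reps1 (120 nt) were in 4, and of Ppp4r3b (159 nt, a phosphatase subunit) and Tmem229b (72 nt) in 5. The Tmem229b exon overlaps a 39 nt skipped exon that all 3 LPS+NMN libraries listed, and the Mettl8 exon a 64 nt one that 1 LPS library listed.

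With LPS+NMN against NMN, the exons listed by LPS+NMN only included, after Parvg, those of Abl2 (63 nt, a tyrosine kinase), Cpped1 (72 nt, a phosphatase), Ikzf1 (135 nt, the lymphoid transcription factor Ikaros) and Oxr1 (81 nt, an oxidation resistance factor), in 8 libraries each. A 72 nt exon of Fubp3, a single-strand binding protein, was in 7, while another of its exons, also of 72 nt, was in all 12. Those listed by NMN only included exons of Sec14l2 (414 nt, a lipid-binding protein), Uqcc1 (87 nt, an assembly factor of respiratory complex III) and Xdh (51 nt, xanthine dehydrogenase), each in the 3 NMN libraries alone. The Sec14l2 exon shares an end with a 226 nt skipped exon that 10 libraries listed, among them all 3 LPS+NMN libraries. Exons of Invs (168 nt, a ciliary protein) and Ncoa7 (114 nt, a nuclear receptor coactivator) were also in 1 control library.

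The number of all skipped exons per gene was tested with limma on log2(exons + 1) over 4687 genes, of which 3096 held frame-preserving exons. For LPS against control 3 genes were higher (0.064% of those tested) and 0 lower (0%). For NMN against control 2 were higher (0.0427%) and 1 lower (0.0213%), and for LPS+NMN against control 4 higher (0.0853%) and 1 lower (0.0213%). LPS+NMN had 1 lower gene (0.0213%) and 0 higher (0%) against LPS, and the same against NMN. At an unadjusted p under 0.05, counting both directions, the 5 comparisons gave 327, 290, 346, 234 and 234 genes. The called genes that held a frame-preserving exon are described next, and the other, Ifi44, held none.

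Irf7 had 4 skipped exons in each of the 9 treated libraries and 1 in each control library. The difference was 1.32 ± 0.15 (SE, log2 scale) in each comparison with control, with a limma adjusted p between 0.000498 and 0.000997. The 1 exon that control libraries listed was the frame-preserving one of 93 nt, in all 12 libraries, and the 3 added in treated libraries, of 59, 67 and 163 nt, were frame-shifting. Dhx58, the RNA sensor LGP2, had 2 skipped exons in each LPS library and 0 in each control library (1.58 ± 0.26, limma adjusted p = 0.0249). Dhx58 had 1, 2 and 2 in NMN and also in LPS+NMN libraries (limma adjusted p = 0.0774 and 0.0516 against control). It did not pass for LPS+NMN against LPS (limma adjusted p = 0.848). Its 1 frame-preserving exon, of 117 nt, was in LPS+NMN replicate 3 only.

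Rpusd1 had 0 skipped exons in each LPS+NMN library and 3 in every other library (-2.00 ± 0.19, limma adjusted p = 8.22e-05 against control, LPS and NMN alike). Its 3 exons were the frame-preserving one of 189 nt and frame-shifting ones of 140 and 211 nt. Parvg had 0 in each NMN library and 2 in each control library (-1.58 ± 0.24, limma adjusted p = 0.00904). Where all libraries of both groups had 1 value, as in Irf7, Rpusd1 and Parvg, the error comes from the spread that limma shares between genes.

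Milr1, an inhibitory receptor of myeloid cells, had 4 skipped exons in each LPS+NMN library and 1 in each control library (1.32 ± 0.22, limma adjusted p = 0.0313). Milr1 had 4, 3 and 2 in LPS and 2, 3 and 4 in NMN libraries (limma adjusted p = 0.229 and 0.252 against control). Its 114 nt frame-preserving exon was in all 12 libraries, and those of 111 and 270 nt were in 4 treated libraries each and no control library. The 111 and 114 nt exons are versions of 1 exon that differ by 3 nt at an end. Hpgds, which makes prostaglandin D, had 2, 4 and 4 in LPS+NMN libraries and 1, 0 and 0 in control libraries (1.74 ± 0.30, limma adjusted p = 0.0354). Hpgds had 3, 4 and 2 in LPS and 2, 2 and 2 in NMN libraries (limma adjusted p = 0.086 and 0.274 against control). Its 171 nt frame-preserving exon was in 8 treated libraries and control replicate 1. Neither Milr1 nor Hpgds passed for LPS+NMN against LPS. Leaving out single libraries ended the calls of Dhx58 in all 6 cases (adjusted p 0.056 to 0.122), of Milr1 in all 6 (0.0518 to 0.137), of Hpgds for control replicates 2 and 3 and LPS+NMN replicates 2 and 3 (0.13 to 0.191) and of Parvg for control replicate 2 and each NMN replicate (0.0515 to 0.0671). Irf7 and Rpusd1 passed in every such fit. Fitting only the groups compared ended the calls of Parvg (limma adjusted p = 0.115) and Dhx58 (0.104). In a fit of frame-preserving exons alone, the calls of Parvg, Rpusd1 and Milr1 were not made, while Hpgds passed. Irf7 and Dhx58 were not tested in that fit, since the Irf7 exon was in all 12 libraries and the Dhx58 exon in 1. With the replicate number as a block, Milr1 and Hpgds were not called (limma adjusted p = 0.0615 each).

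Of the interferon response list, 21 genes were tested, and 2 were higher with LPS (Irf7 and Dhx58), 1 with NMN and 1 with LPS+NMN (Irf7) against control, with none lower. The median difference over the 21 was 0.333, 0.384 and 0.333 (log2 scale), beside 0 over all 4687 genes. None of the 24 tested genes of Toll-like receptor and NF-kB signalling, the 9 of ferroptosis, the 12 of NAD metabolism, the 45 splicing regulators or the 73 genes of known cassette exons passed in any of the 5 comparisons. For Myd88, whose only skipped exon is the 135 nt one, the limma adjusted p against control was between 0.68 and 0.826.

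Other genes differed in frame-preserving exons per library without passing in the count of all skipped exons. They were chosen after their values were seen. Ifi203, an interferon-inducible nuclear protein, had 3, 3 and 3 in LPS, 4, 3 and 4 in NMN, 3, 3 and 3 in LPS+NMN, and 0, 1 and 2 in control libraries. Its coding exons of 1242 and 144 nt were in all 9 treated libraries and control replicate 3. Marco, a macrophage scavenger receptor, had a 219 nt coding exon in all 9 treated libraries and control replicate 1. Pcca, a mitochondrial propionyl-CoA carboxylase subunit, had 1 or 2 in each treated library and 0 in each control library, spread over 5 coding exons of 54 to 114 nt. Against control the limma adjusted p for all skipped exons of these 3 genes was between 0.198 and 0.567. In the fit of frame-preserving exons alone, Ifi203 and Pcca passed against control in all 3 treatments and Marco in LPS+NMN. That fit tested its own set of genes, and its calls are not given as a share of them. For LPS against control the same fit also called Gbp3 higher (limma adjusted p = 0.000532), and Ankrd24 (0.0179) and Fbf1 (0.0356) lower. Hdac5, a histone deacetylase, had 0 frame-preserving exons in the 3 LPS+NMN libraries, against 2, 2 and 2 in NMN libraries, with 0 to 2 in LPS and 1 or 2 in control libraries. Its exons of 72 and 75 nt differ by 3 nt at an end and stood in most of these libraries together. The limma adjusted p for LPS+NMN against NMN was 0.836 over all skipped exons of Hdac5, and in the fit of frame-preserving exons alone Hdac5 passed against NMN and against control.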

How the data were processed

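RNA sequencing of BV-2 cells gave 12 libraries, and the deposited files are catalogues of splicing events per library in no numeric unit other than positions. Per the file headers they give event type, gene, chromosome, start, end, flank pattern and strand; the program that made them and its assembly are not stated by any source used here. Per the submitters' processing notes, a GRCm38 build and the tools HOMER, MACS2 2.1.0 and BWA 0.7.12 were used, with no role stated. Positions in the deposited catalogues did not match GRCm38 for most exons, so exons were identified in GENCODE M21 by gene, strand, exon length and both flanking intron lengths. The sequences are GENCODE's.

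Groups were compared over libraries with exact permutation tests, two-sided, adjusted by Benjamini-Hochberg over 5 comparisons. Skipped exons per gene were tested with limma 3.58.1 (R 4.3.3; trend and robust moderation) on log2(exons + 1), fitted over all 12 libraries for genes with at least 1 exon in 3 libraries, adjusted over all genes tested with a threshold of 0.05. The fit was also run on counts shuffled over libraries, with exons added to the LPS libraries for some genes. That simulation was not set to the counts of the called genes, so it is no check of their calls. Python 3.11.15 with SciPy 1.17.1 made the counts. The members, gene lists and tests were chosen with earlier results of these data known. Named were the 10 genes with most exons, the 5 longest exons, up to 6 exons per direction and comparison, up to 6 per gene list and a set of known cassette genes; others are said to be chosen after their values were seen. Some genes that these rules name are not reported here.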

Additional observations from a re-analysis of the deposited data

How the results depend on the processing

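With exons in at least 2 libraries only, LPS+NMN against LPS changed sign in exons per library (3.33), and with lengths over 100 nt so did the LPS against control share (0.104 percentage points). At over 100 nt, the exons listed by one group only fell in number: 14 and 28 for LPS and control, 22 and 24 for NMN and control, 38 for control against LPS+NMN, 11 and 9 for LPS+NMN and LPS, and 18 for NMN against LPS+NMN. By construction, fewer exons can meet the condition there, and more where a library is left out.

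Without each library in turn, the difference in exons per library ran from -60.0 to 26.5 for LPS+NMN against LPS and from -132 to 1.17 for LPS+NMN against NMN. The share differed by -0.434 to 0.0841 points for LPS and -0.157 to 0.361 for NMN against control. Exons listed by one group only numbered 41 to 71 for LPS and 78 to 140 for control, 53 to 86 for NMN and 78 to 121 for control, 51 to 83 for LPS+NMN and 94 to 145 for control, 47 to 61 for LPS+NMN and 38 to 70 for LPS, and 43 to 57 for LPS+NMN and 47 to 87 for NMN. The recurrence difference was 0.58 to 0.594 libraries, with 1 library fewer to be found in.

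Called genes, higher and lower, in the same leave-outs were 2 to 5 and 0 to 2 for LPS, 1 to 6 and 0 to 2 for NMN, and 2 to 7 and 1 to 2 for LPS+NMN against control, 1 to 2 lower against LPS and 0 to 1 higher against NMN. For LPS against control the counts were 6 higher with a pseudocount of 0.5, 6 and 2 with no filter, 10 and 9 without trend and robust moderation, 5 and 10 with only the groups compared, and 5 and 2 over frame-preserving exons only. For NMN against control they were 5 and 2 with no filter, 6 and 8 without trend and robust moderation, 5 and 5 with only the groups compared, and 0 lower over frame-preserving exons. For LPS+NMN against control they were 7 and 2 with a pseudocount of 0.5, 8 and 2 with no filter, 2 lower with at least 2 exons in 3 libraries, 10 and 8 without trend and robust moderation, and 12 and 15 in a fit of those groups alone. Against LPS, LPS+NMN gave 6 and 4 without trend and robust moderation, 2 higher with only the groups compared and 0 lower over frame-preserving exons. LPS+NMN against NMN gave 1 higher with a pseudocount of 0.5, 5 and 4 without trend and robust moderation, and 3 and 7 with only the groups compared. The filter, the libraries or the exons counted change between some of these settings, and so does the number of genes tested. These counts are not shares and cannot be compared as such. The cause was not tested.

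Libraries of different groups share replicate numbers, but their deviations were correlated at -0.0408 to 0.0319, and 5 of 12 libraries were most like one of their own number. With the replicate block, LPS+NMN against control had 2 higher genes in place of 4 (Milr1 and Hpgds were not called), and no other count changed. The catalogues hold no depth, so an exon that is not listed cannot be called absent.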
